A study of Rattus norvegicus with 8 samples.

Results

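Fibrinogen, prothrombin, plasminogen, complement C3 and the acute phase proteins circulate in plasma, and their mRNAs are made mainly by hepatocytes. The messages examined here are 10 genes chosen by symbol, with earlier results of these data known. They are the fibrinogen chains Fga, Fgb and Fgg, prothrombin (F2), plasminogen (Plg), haptoglobin (Hp), alpha-1-antitrypsin (Serpina1), complement C3, fetuin-A (Ahsg) and inter-alpha-trypsin inhibitor heavy chain 4 (Itih4). Rows under 9 of these symbols were present among the 29541 genes of the table, and the level of Ahsg was not analysed here. Plasma exosome RNA had been sequenced from male Sprague Dawley rats, 9 to 10 weeks old on arrival, which belonged to a cohort without injected fibrils. The rats behind the 4 Exercised libraries trained on a treadmill for 1 month on 5 days of each week. A session had a warm-up at 10 m/min, lasting 5 min, and a run at 20 m/min, lasting 30 min, and blood was taken no later than 30 min after the last session. The 4 Sedentary libraries came from rats that stayed in the same room without running. Libraries carried the letters a to d in both groups. The labels do not say whether each library was a separate rat, so p-values measure the spread between libraries.

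In the clotting pathway thrombin, which is cut from prothrombin, turns fibrinogen into fibrin, and plasmin, which is cut from plasminogen, dissolves it again. C3 is the central component of complement, and its cleavage tags particles for uptake. In an acute phase response interleukin 6 acts on hepatocytes through STAT3, and liver transcripts such as those of the fibrinogen chains and haptoglobin increase.

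All 9 messages had a lower mean level in Exercised than in Sedentary libraries, where 37.4% of the 7640 genes with at least 10 reads had a lower mean. Levels are given as transcripts per 1000000 (TPM), a unit that corrects for gene length and adds up to the same total in every library. The difference was largest for Plg, prothrombin and Fgg, at 0.118, 0.128 and 0.128 of the Sedentary mean, and smallest for Itih4, at 0.605. After TPM was scaled again without the 10 most abundant RNAs, the ratios were lower in each of the 9 genes, at 0.0758 for Plg, 0.0768 for F2, 0.0760 for Fgg, 0.0811 for C3, 0.112 for Hp, 0.159 for Fgb, 0.301 for Serpina1, 0.331 for Fga and 0.363 for Itih4. That scaling multiplies all remaining genes of a library by the same factor, so the shift is not particular to the 9 genes. The 10 RNAs left out took 98.6 to 99.2% of TPM in Sedentary and 98.1 to 98.7% in Exercised libraries. In 2 of the 9 genes, Fgg and Plg, every Exercised library lay below every Sedentary library, which held for 1.31% of the 7640 genes. In 0 of the 9 every Exercised library lay above every Sedentary library, against 2.15% of the 7640 genes. Adjusted over all genes tested, 0 of the 9 differences passed the threshold of 0.05 in any of the tests run.

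The messages were rare. The libraries held 10019168 to 31356873 reads, of which the 10 most abundant RNAs took 99.3 to 99.7%, and 63140 to 139291 reads were left for everything else. The 9 genes together received 1657 reads, 1388 in Sedentary and 269 in Exercised libraries. Reads were recovered from the TPM values as the smallest whole numbers that fit a gene in all libraries. A gene with no read in a library was assigned an upper limit of 3 reads. A single read was worth about 3 times more TPM in Exercised a than in Sedentary a, as the value of 3 reads of Fga was 0.171 TPM in the former and 0.0568 TPM in the latter. Intervals and limits cover counting error only.

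The promoter windows of the fibrinogen chains are shown because these genes sit next to each other and their products form a single protein, and that of plasminogen because its groups did not overlap. Each window runs from 250 bases before the annotated start to 50 bases after it, 5′ to 3′ on the strand of the gene, from RefSeq on GRCr8. Capitals mark matches to CTGGGAA (the core of the interleukin 6 response element of acute phase genes), TTCNNNGAA (STAT), TTNNGCAAT (C/EBP), the HNF1 consensus, CAAAGTCCA (HNF4) and TATAAA (the TATA box), each searched on both strands. The windows lie at chr2:170652833-170653132 on the plus strand for Fgg, chr2:170671919-170672218 on the plus strand for Fga, chr2:170700826-170701125 on the minus strand for Fgb and chr1:50915357-50915656 on the minus strand for Plg.
Fgg: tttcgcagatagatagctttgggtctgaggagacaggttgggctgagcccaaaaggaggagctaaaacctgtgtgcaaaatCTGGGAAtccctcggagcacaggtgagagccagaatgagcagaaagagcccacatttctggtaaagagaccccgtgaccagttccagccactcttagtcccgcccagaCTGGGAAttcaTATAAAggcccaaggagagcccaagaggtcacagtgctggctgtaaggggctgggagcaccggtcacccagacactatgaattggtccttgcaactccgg
Fga: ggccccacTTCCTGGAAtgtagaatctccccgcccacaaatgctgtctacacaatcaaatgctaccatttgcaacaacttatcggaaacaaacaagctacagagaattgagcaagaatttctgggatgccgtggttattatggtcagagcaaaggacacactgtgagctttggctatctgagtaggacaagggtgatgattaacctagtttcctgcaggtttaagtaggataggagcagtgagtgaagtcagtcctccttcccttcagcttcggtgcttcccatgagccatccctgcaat
Fgb: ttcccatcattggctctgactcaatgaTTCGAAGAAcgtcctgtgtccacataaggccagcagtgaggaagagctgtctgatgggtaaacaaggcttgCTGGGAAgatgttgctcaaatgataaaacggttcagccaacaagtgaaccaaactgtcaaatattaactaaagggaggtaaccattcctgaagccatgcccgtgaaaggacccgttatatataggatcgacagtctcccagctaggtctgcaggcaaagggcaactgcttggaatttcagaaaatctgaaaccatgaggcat
Plg: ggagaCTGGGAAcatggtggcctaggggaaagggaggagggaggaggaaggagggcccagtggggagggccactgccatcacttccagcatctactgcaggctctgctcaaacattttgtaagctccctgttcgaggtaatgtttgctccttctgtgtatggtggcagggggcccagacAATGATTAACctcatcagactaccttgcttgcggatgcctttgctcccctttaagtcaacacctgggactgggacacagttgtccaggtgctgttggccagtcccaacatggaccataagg
In bases from the start, the Fgg window had CTGGGAA at -169 and -61, the latter just upstream of a TATA box at -50. The Fgb window had CTGGGAA at -152 and a STAT match at -223. The Fga window shown had a STAT match at -242. A window at another annotated Fga start, chr2:170671937-170672236, had no match to any of these letters. Plg had CTGGGAA at -245 and a reverse-strand HNF1 match at -71.

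Windows were at hand for 9 of the 10 genes, Ahsg included and Hp not. CTGGGAA was found in 6 of the 9 (Fgb, Fgg, Plg, C3, Ahsg and Itih4) and in 11.3% of all 33469 rat windows. TTCNNNGAA was found in 3 (Fgb, Itih4 and, only in the window shown, Fga) and in 8.87% of all windows. Its match in Itih4 overlaps the CTGGGAA match there. The C/EBP letters occurred only in Ahsg among the 9 and in 2.33% of all windows, the HNF1 letters only in Plg and in 0.335%, and TATAAA in Fgg and Itih4 and in 14.2%. The HNF4 letters occurred in 0 of the 9 and in 0.391% of all windows. A match describes the letters alone.

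The fibrinogen molecule is built from the alpha, beta and gamma chains. Fgg, the gamma chain (ENSRNOG00000025074), had 0.427, 0.164, 0.582 and 0.658 TPM in Sedentary a to d and 0.0806, 0.0366, 0.0783 and 0.0390 TPM in Exercised a to d. Every Exercised library lay below the lowest Sedentary library, although the Exercised values rest on 1 or 2 reads each against 4 to 24 in Sedentary. Its mean was 0.0586 ± 0.0241 (SD, n = 4) in Exercised against 0.458 ± 0.218 TPM in Sedentary, 7.81 times lower, with p = 0.0286 in a two-sided exact permutation test, the smallest that 4 against 4 libraries can give (0.827 adjusted over 7640 genes). Leaving out any 1 Exercised library took that p to 0.0571, although the groups still did not overlap. The ratio of means was between 0.105 and 0.150 over all libraries left out in turn.

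Fga, the alpha chain, showed a different pattern within the Exercised group. It measured 1.17, 0.233, 0.945 and 2.61 TPM in Sedentary a to d and 0.628, 2.13, 0 and 0 TPM in Exercised a to d. Exercised b alone, with 82 reads, exceeded 3 of the 4 Sedentary libraries, while Exercised c and d had no read, which allows up to 0.0833 and 0.0830 TPM. The means were 1.24 ± 0.997 and 0.689 ± 1.0 TPM (SD, n = 4), a ratio of 0.555 that did not exceed the spread (exact permutation test, p = 0.457). Without Exercised b the ratio was 0.169, and without Sedentary d it was 0.879.

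Fgb, the beta chain, also was absent from Exercised c and d. Its levels were 0.673, 0.0397, 0.869 and 1.60 TPM in Sedentary a to d and 0.703, 0.142, 0 and 0 TPM in Exercised a to d. Exercised a, on 9 reads, lay among the Sedentary libraries, and Sedentary b, on 1 read, lay among the Exercised ones. The ratio of means was 0.266 (0.211 ± 0.335 against 0.795 ± 0.641 TPM, n = 4, exact permutation p = 0.143). It was 0.0595 without Exercised a and 0.400 without Sedentary d.

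Summed over the chains, fibrinogen messages reached 2.27, 0.436, 2.40 and 4.86 TPM in Sedentary a to d and 1.41, 2.31, 0.0783 and 0.0390 TPM in Exercised a to d. The chains did not keep a fixed proportion. Fga made up 39.4 to 53.7% of the fibrinogen TPM in the Sedentary libraries, 44.5% in Exercised a and 92.3% in Exercised b, where Fgg was 1.59% and Fgb 6.15%. In Exercised c and d the only fibrinogen reads were 2 and 1 of Fgg.

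**Figure D1:**
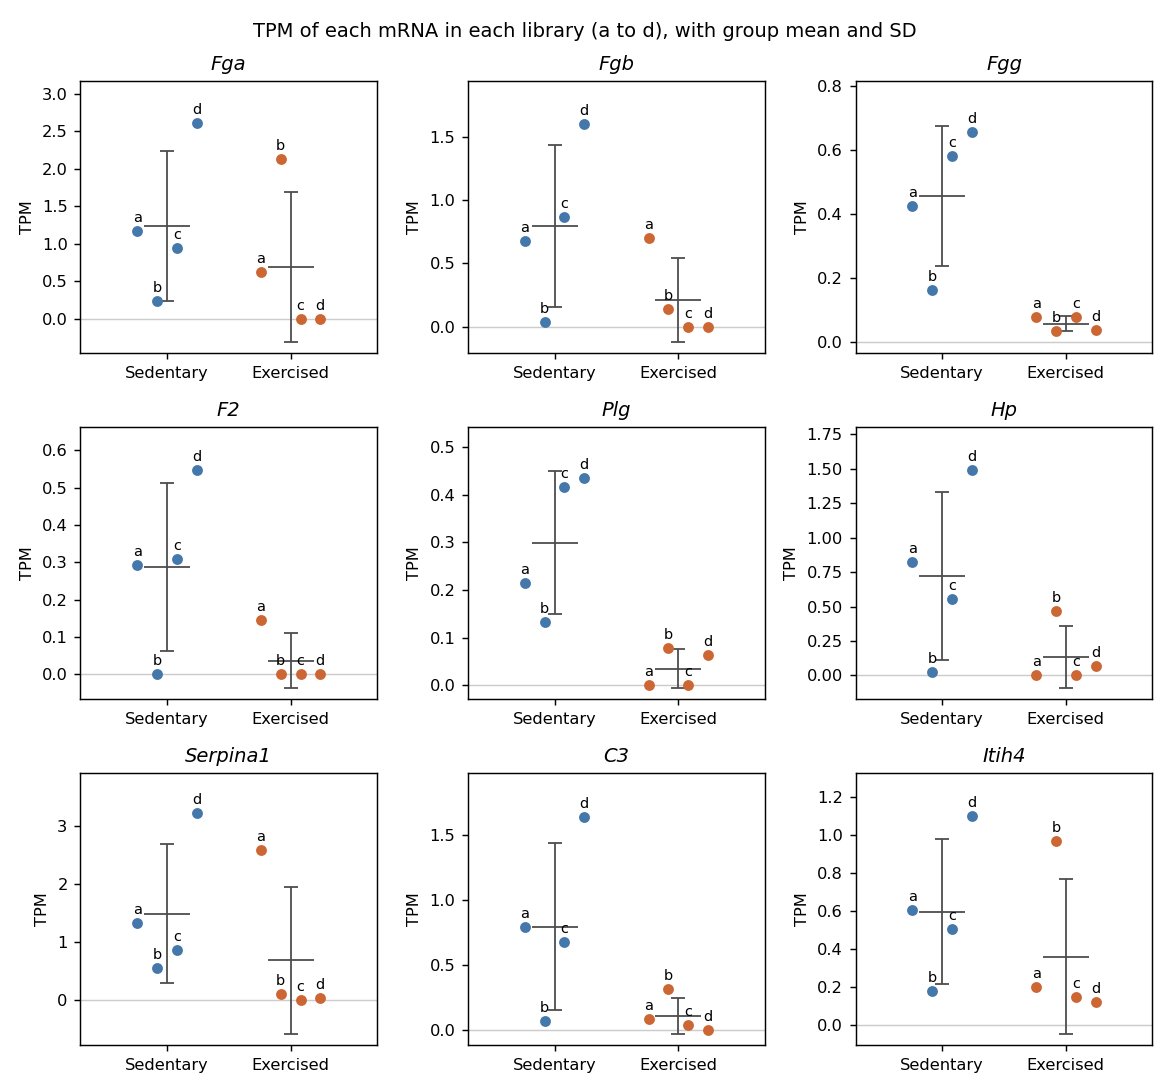
TPM of each of the 9 mRNAs in the 4 Sedentary (blue) and 4 Exercised (orange) libraries, with letters for the libraries, bars for the group mean and its SD, and a separate vertical scale for each gene. The groups do not overlap in Fgg and Plg, and Sedentary d has the highest TPM in all 9 panels. Exercised a or b has the highest Exercised TPM in all 9 panels, though only narrowly in Fgg and Plg.

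Prothrombin acts in the formation of a clot and plasminogen in its removal. Plg (ENSRNOG00000017223) had 0.215, 0.132, 0.416 and 0.434 TPM in Sedentary a to d and 0, 0.0786, 0 and 0.0628 TPM in Exercised a to d. The groups did not overlap, on 80 Sedentary and 7 Exercised reads. The mean was 8.46 times lower in Exercised (0.0354 ± 0.0413 against 0.299 ± 0.149 TPM, SD, n = 4, exact permutation p = 0.0286, 0.827 adjusted over 7640 genes). As for Fgg, leaving out any 1 Exercised library gave an exact p of 0.0571 with groups that still did not overlap. The ratio then ranged from 0.0700 without Exercised b to 0.158 without Exercised a.

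F2, which encodes prothrombin, was the least abundant of the 9 in reads. It had 0.293, 0, 0.310 and 0.547 TPM in Sedentary a to d and 0.147, 0, 0 and 0 TPM in Exercised a to d. The only Exercised read was in Exercised a, and Sedentary b also had none, so the groups overlapped. Scaled to the reads outside the 10 most abundant RNAs, the 1 Exercised read against 23 Sedentary reads is a ratio of 0.0464, with an exact 95% binomial (Clopper-Pearson) interval of 0.00113 to 0.286 (exact permutation test on TPM, n = 4, p = 0.143).

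C3 was covered by 319 Sedentary and 30 Exercised reads, the most of the 9 in Sedentary. Its levels were 0.796, 0.0736, 0.679 and 1.64 TPM in Sedentary a to d and 0.0867, 0.315, 0.0422 and 0 TPM in Exercised a to d. All Exercised libraries lay below Sedentary a, c and d, and Sedentary b lay below Exercised a and b. The ratio of means was 0.139 (0.111 ± 0.141 against 0.798 ± 0.647 TPM, n = 4, exact permutation p = 0.0857), and without Sedentary b it was 0.107 with the smallest p possible, 0.0286. It was 0.215 without Sedentary d, with an exact p of 0.143, and 0.0539 without Exercised b, with an exact p of 0.0857.

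Hp encodes haptoglobin, which binds free haemoglobin and is a strong acute phase protein in rats. It measured 0.820, 0.0229, 0.555 and 1.49 TPM in Sedentary a to d and 0, 0.470, 0 and 0.0654 TPM in Exercised a to d. Of its 26 Exercised reads 23 were in Exercised b, and the single read of Sedentary b put that library below 2 Exercised ones. The ratio of means was 0.186 (0.134 ± 0.226 against 0.721 ± 0.609 TPM, n = 4, exact permutation p = 0.0857). It was 0.0302 without Exercised b, 0.287 without Sedentary d, where the exact p was 0.200, and 0.140 without Sedentary b, where it was 0.0286.

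Serpina1, the main inhibitor of neutrophil elastase in plasma, had the highest mean level of the 9. It measured 1.32, 0.556, 0.869 and 3.22 TPM in Sedentary a to d and 2.58, 0.106, 0 and 0.0378 TPM in Exercised a to d. Exercised a, on 33 reads, was above 3 of the 4 Sedentary libraries, whereas Exercised b, c and d had 3, 0 and 1 reads and lay below all of them. The ratio of means was 0.456 (0.680 ± 1.27 against 1.49 ± 1.19 TPM, n = 4, exact permutation p = 0.371), 0.0322 without Exercised a and 0.743 without Sedentary d. Its mean over all 8 libraries was the only one of the 9 above 1 TPM, the limit of the test by limma on log2(TPM + 1), where its log2 fold change was -0.70 ± 0.544 (SE), with an adjusted p of 0.621 over 508 genes. On that log2(TPM + 1) scale changes of low genes are understated.

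Itih4, an acute phase protein of the inter-alpha-trypsin inhibitor family, was, with Fgg, 1 of the 2 genes with reads in every library. It had 0.607, 0.181, 0.505 and 1.10 TPM in Sedentary a to d and 0.203, 0.971, 0.148 and 0.123 TPM in Exercised a to d. Exercised b, on 42 reads, was above Sedentary a, b and c, and the other Exercised libraries lay near Sedentary b. The ratio of means was 0.605 (0.361 ± 0.407 against 0.597 ± 0.379 TPM, n = 4, exact permutation p = 0.429), 0.265 without Exercised b and 0.838 without Sedentary d.

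Added over the 9 genes, the level was 6.32, 1.40, 5.73 and 13.3 TPM in Sedentary a to d and 4.43, 4.25, 0.269 and 0.328 TPM in Exercised a to d. Exercised a and b thus stood between Sedentary b and Sedentary c, and Exercised c and d lay below all Sedentary libraries. The mean was 6.69 ± 4.92 against 2.32 ± 2.33 TPM (SD, n = 4), a ratio of 0.347. It stayed between 0.299 and 0.375 when any 1 gene was left out of the sum, and between 0.241 without Exercised a and 0.517 without Sedentary d when any 1 library was left out.

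Scaled instead to 1000000 of the reads left once the 10 most abundant RNAs are removed (RPM, not corrected for gene length), the sums were 3387, 605, 3532 and 4652 RPM in Sedentary a to d and 982, 1323, 107 and 151 RPM in Exercised a to d. The mean ratio on that scale was 0.211, lower than on TPM. Sedentary b again lay within the range of the Exercised libraries. In bulk plasma, fewer vesicles from a source and less of its RNA per vesicle cannot be told apart.

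**Figure D2:**
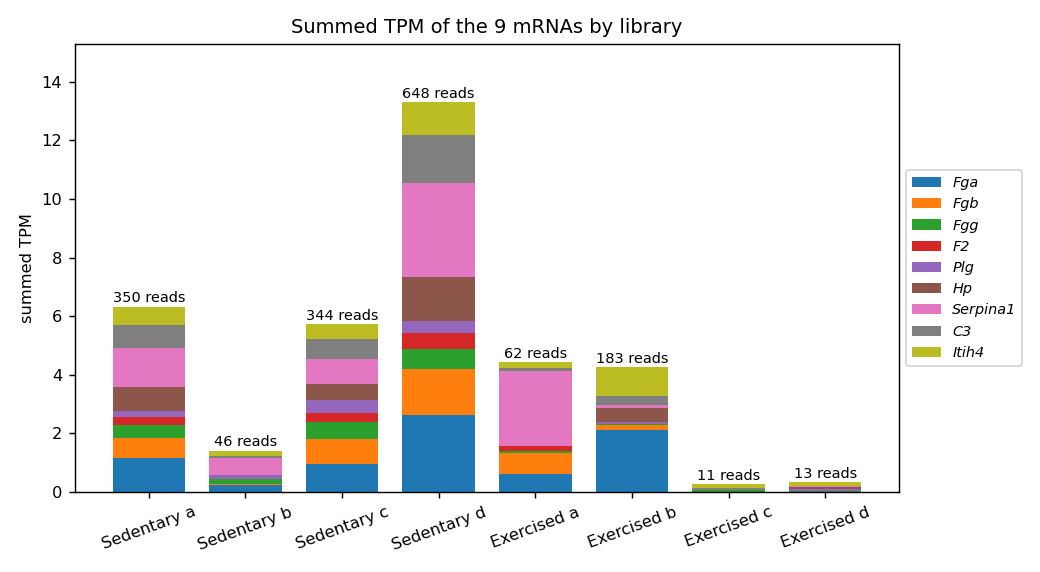
Summed TPM of the 9 mRNAs in each library, stacked by gene, with the summed reads written above each bar. Exercised c and d reach 0.269 and 0.328 TPM on 11 and 13 reads, Exercised a is mostly Serpina1 and Exercised b is mostly Fga, and Sedentary d is highest at 13.3 TPM.

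The libraries differed in which message led. Serpina1 was the highest in Sedentary a, b and d, with 20.9, 39.7 and 24.2% of the summed TPM, and Fga led in Sedentary c with 16.5%. In Exercised a Serpina1 held 58.2%, in Exercised b Fga held 50.1%, and in Exercised c and d Itih4 held 55.2 and 37.5%. The number of genes with a read was 9, 8, 9 and 9 in Sedentary a to d and 7, 8, 3 and 5 in Exercised a to d. For 8 of the 9 genes, Itih4 being the exception, Exercised c and d had 3 or fewer reads each.

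Within the Sedentary group the genes varied together. On TPM all 9 were highest in Sedentary d and lowest in Sedentary b. On RPM all 9 were lowest in Sedentary b, 6 were highest in Sedentary d, and Fgg, Plg and F2 were highest in Sedentary c. Sedentary b was also the least sequenced of the group, with 76053 reads outside the 10 most abundant RNAs, and Sedentary d had the most such reads, 139291. Exercised b, with 138331, was the deepest Exercised library and Exercised a, with 63140, the shallowest. The spread between these extremes ran from 3.29-fold for Plg to 65.0-fold for Hp, leaving out F2, which had no read in Sedentary b. Without Sedentary b the groups did not overlap for 5 of the 9 genes (Fgg, Plg, F2, Hp and C3), against 3.42% of the 7640 genes on the same libraries.

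A linear model on the recovered reads (voom in limma) weighs each library on a log scale, where a few high libraries count less than in a mean of TPM. There, 8 of the 9 genes were lower in Exercised at an unadjusted p under 0.05, which held for 3.95% of the 7640 genes tested, and 0 of the 9 passed after adjustment over those genes. Across all 7640 genes 302 were lower and 158 (2.07%) higher at an unadjusted p under 0.05, and 0 passed after adjustment. The smallest p belonged to Plg, with a log2 fold change of -3.46 ± 0.861 (SE) and an adjusted p of 0.211. Serpina1 followed at -3.79 ± 0.976 with an adjusted p of 0.237, then Fgg at -3.0 ± 0.783 with the same adjusted p, and C3 at -3.63 ± 1.01 with an adjusted p of 0.280.

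Fgb, Fga, Hp and F2 had log2 fold changes of -3.31, -3.30, -3.31 and -2.60 by the same test, with unadjusted p of 0.00788, 0.0100, 0.0116 and 0.0255 and adjusted p of 0.489 to 0.731. Itih4 was the gene that missed the unadjusted threshold, at -1.42 ± 0.720 (SE) with an adjusted p of 0.842. The median of the 9 was -3.31 and that of all tested genes -0.18. For genes with no read in some libraries these fold changes depend on the constant added before the logarithm and are no bounds. Without Exercised c the count of genes under the unadjusted threshold was 5 of the 9, and without Sedentary b it was 9. Over all genes tested in those fits, 232 of 6880 and 361 of 7189 were lower at that threshold.

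The direction of the background depended on scaling. With TPM as deposited, 43 of the 508 genes were higher (8.46%) and 11 lower (2.17%) in Exercised by limma at an unadjusted p under 0.05, with a median log2 fold change of 0.40, and 0 passed after adjustment. Brought to equal totals outside the 10 most abundant RNAs, 16 were higher and 22 lower with a median of -0.00. The mean of each of the 9 genes was lower in Exercised on TPM and on RPM.

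**Figure D3:**
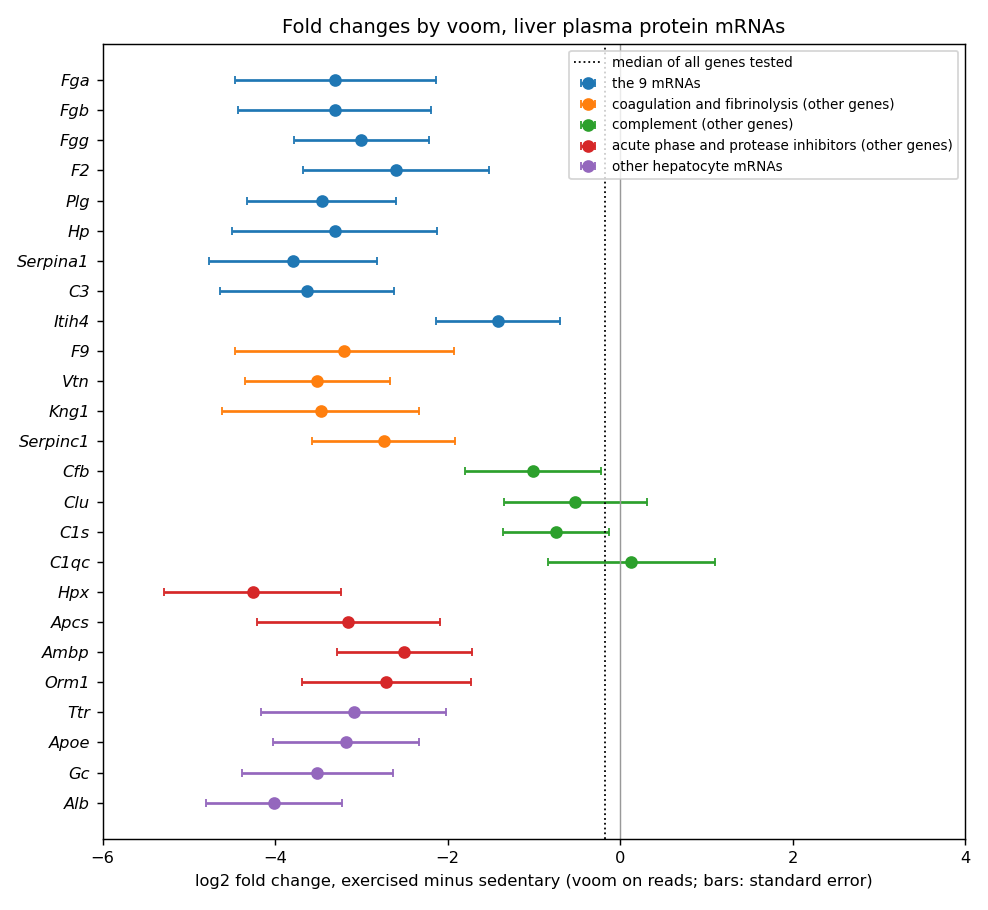
Log2 fold changes, Exercised minus Sedentary, by voom on recovered reads for the 9 mRNAs and up to 4 named genes of each related list; bars are standard errors, the dotted line is the median of all tested genes (-0.18) and the grey line is 0. The 9 mRNAs lie between -3.79 and -1.42, near the named coagulation, acute phase and hepatocyte genes, and the named complement genes lie between -1.01 and 0.13.

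Other genes of the same pathways were read from lists made with earlier results of these data known. Of 28 further coagulation and fibrinolysis genes in the table, 27 had reads and 17 were tested by voom, of which 6 were lower and 1 higher in Exercised at an unadjusted p under 0.05. Those lower were F9, vitronectin (Vtn), kininogen (Kng1), antithrombin (Serpinc1), protein C (Proc) and alpha-2-antiplasmin (Serpinf2), and the higher one was F8, on 5 Sedentary and 19 Exercised reads. Proc, F8 and Serpinf2 are named after their values were seen. F8 is made mainly by endothelial cells, unlike the genes that were lower, but whether that source bears on the direction of F8 was not tested. In a list of endothelial genes, 7 were tested by voom and 0 reached the unadjusted threshold in either direction. Their median log2 fold change was -0.26. The median log2 fold change over the 17 coagulation genes was -1.56, and 0 of them passed after adjustment. Over all 7640 genes tested by voom, 3.95% were lower and 2.07% higher at an unadjusted p under 0.05. Groups did not overlap in 2 of the 28 coagulation genes with lower levels in Exercised and in 1 with higher levels. Those directions held for 1.31% and 2.15% of the 7640 genes.

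F9, clotting factor IX, was the most abundant of them at 0.235, 0.527, 4.04 and 12.1 TPM in Sedentary a to d and 0.818, 2.92, 0 and 0.106 TPM in Exercised a to d. It was highest in Sedentary d, like the 9 genes, but lowest of the Sedentary libraries in a rather than b. Vtn measured 1.40, 1.03, 1.03 and 1.30 TPM in Sedentary a to d and 0.461, 0.586, 0 and 0.0446 TPM in Exercised a to d. Its groups did not overlap (exact permutation p = 0.0286, n = 4), and its Sedentary libraries were the most even of the named clotting genes.

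Complement genes other than C3 were read in the same way. Of 28 such genes measured, 26 had reads and 17 were tested by voom, of which 3 were lower (C4a and C9 among them, named after their values were seen) and 0 higher at an unadjusted p under 0.05, with a median log2 fold change of -0.66. Lower calls by voom held for 3.95% of all 7640 genes tested. The groups did not overlap in 2 of the 28 complement genes, both lower in Exercised, against 1.31% of the 7640 genes. The summed level of the complement genes was 2.86 ± 1.39 TPM in Sedentary and 2.51 ± 1.06 TPM in Exercised (SD, n = 4), a ratio of 0.878 that turned to 1.11 without Sedentary d and to 1.01 without Exercised d. It was 0.538 after scaling TPM again without the 10 most abundant RNAs and 0.582 on RPM. The most abundant was Cfb, factor B of the alternative pathway, at 0.432 ± 0.270 and 0.423 ± 0.492 TPM (SD, n = 4). C1qc, a subunit of C1q that is made by macrophages, had 0.158 ± 0.166 and 0.341 ± 0.470 TPM (SD, n = 4).

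Other acute phase genes and protease inhibitors numbered 32 in the table, and all had reads, and of the 23 tested by voom 13 were lower and 0 higher at an unadjusted p under 0.05, with a median log2 fold change of -2.46. Of all 7640 genes tested, 3.95% were lower at that threshold. Groups did not overlap in 2 of the 32, both lower in Exercised, against 1.31% of the 7640 genes. Hemopexin (Hpx), which binds free haem, had 4.41, 1.94, 6.38 and 24.0 TPM in Sedentary a to d and 0.684, 5.33, 0.333 and 0 TPM in Exercised a to d. Its log2 fold change by voom was -4.26 ± 1.03 (SE, adjusted p = 0.201). The rat alpha-1-inhibitor Mug1, a murinoglobulin whose plasma level falls in the rat acute phase response, had 119 Sedentary reads and 1 Exercised read. Orm1, alpha-1-acid glycoprotein, which increases in that response, had 81 and 8. Both were lower at an unadjusted p under 0.05 (0.000897 and 0.0123), as were Crp with 99 and 15 reads and Serpina3n with 82 and 10. Mug1, Crp and Serpina3n are named after their values were seen.

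Genes that mark hepatocytes were read in the same libraries. All 32 further hepatocyte genes in the table had reads, led by transthyretin (Ttr), apolipoprotein E (Apoe), albumin (Alb) and vitamin D binding protein (Gc). Of the 29 tested by voom 23 were lower and 0 higher in Exercised at an unadjusted p under 0.05, with a median log2 fold change of -3.09. Of all 7640 genes tested, 3.95% were lower at that threshold. Groups did not overlap in 11 of the 32, all lower in Exercised, against 1.31% of the 7640 genes. The summed level of the hepatocyte genes was 54.4, 22.1, 70.8 and 93.4 TPM in Sedentary a to d and 23.7, 69.5, 3.0 and 3.0 TPM in Exercised a to d. Sedentary d was highest, Sedentary b lowest of its group, and Exercised c and d lowest of all, as for the sum of the 9 genes. On TPM Exercised b lay above Sedentary a here and below it in that sum. On RPM Exercised b lay below Sedentary a in both, at 9311 against 20106 for the hepatocyte list. That list was highest on RPM in Sedentary c (22641 against 21796 in Sedentary d).

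Alb measured 6.97, 1.74, 3.49 and 10.1 TPM in Sedentary a to d and 0.0580, 2.13, 0.394 and 0.253 TPM in Exercised a to d. Its log2 fold change by voom was -4.01 ± 0.785 (SE), with an adjusted p of 0.104. The groups overlapped only in that Exercised b exceeded Sedentary b.

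**Figure D4:**
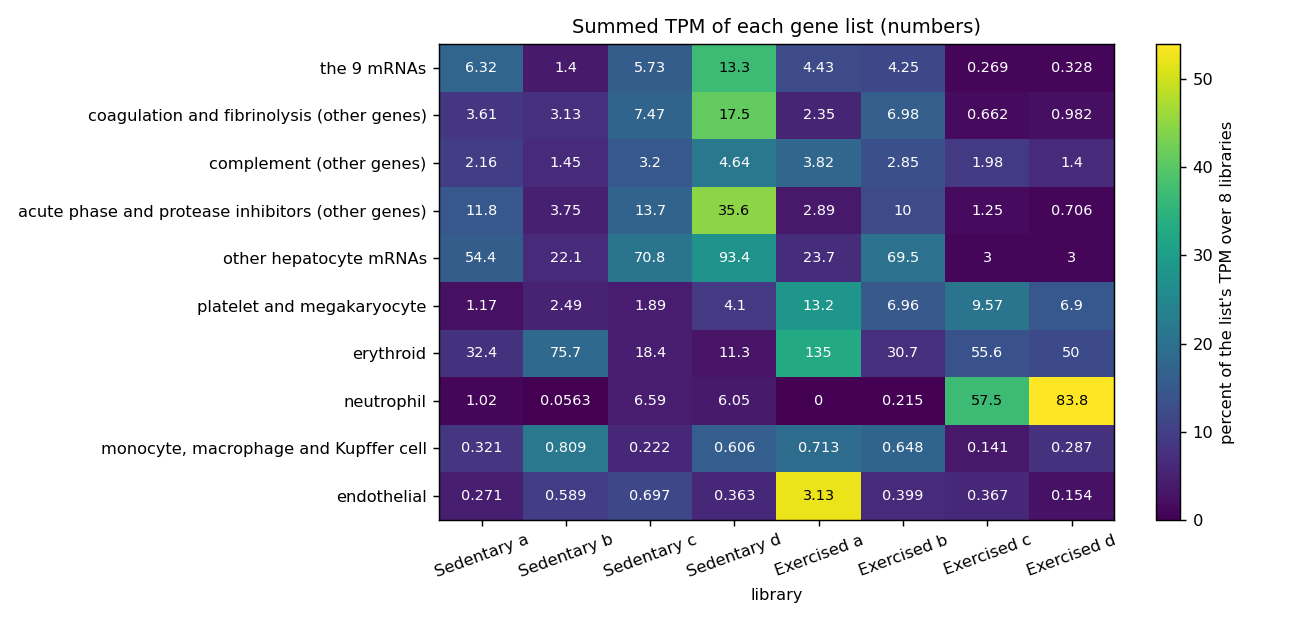
Summed TPM of the 9 mRNAs and of 9 gene lists in each library (numbers), coloured by the percentage of the total of each list over the 8 libraries. The liver-related lists are low in Exercised c and d, where the neutrophil list is at 57.5 and 83.8 TPM, and the platelet list is at 6.90 TPM or more in every Exercised library against 4.10 or less in every Sedentary library, a gap that rests on Pf4.

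Markers of blood cells moved between libraries as well. Platelet and megakaryocyte genes, of which 12 of 14 had reads, summed to 1.17 to 4.10 TPM in Sedentary and 6.90 to 13.2 TPM in Exercised, with Pf4, platelet factor 4, as the 1 of 8 tested genes that was higher at an unadjusted p under 0.05 and with Gp1bb and Selp without a read. Without Pf4 the platelet sums overlapped, at 0.495, 0.986, 0.656 and 2.07 TPM in Sedentary a to d and 1.12, 3.65, 3.37 and 1.27 TPM in Exercised a to d. Neutrophil genes, of which 13 of 14 had reads, summed to 1.02, 0.0563, 6.59 and 6.05 TPM in Sedentary a to d. In Exercised a to d they summed to 0, 0.215, 57.5 and 83.8 TPM. The Exercised libraries with the lowest levels of the 9 genes were those with the highest neutrophil levels, mostly the defensins RatNP-3b and Np4. Within Sedentary this did not hold, as b was lowest and d among the higher libraries for both the 9 genes and the neutrophil genes. Elane, the gene of neutrophil elastase, had no read in any library. Of the 4 neutrophil genes tested by voom, 0 passed at an unadjusted p under 0.05.

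Erythroid genes, of which 9 of 10 had reads, summed to 11.3 to 75.7 TPM in Sedentary and 30.7 to 135 TPM in Exercised. Sedentary b, the lowest Sedentary library for the 9 genes, was the highest Sedentary library here. Exercised a was the highest Exercised library both here, at 135 TPM, and for the summed 9 genes, at 4.43 TPM. Exercised b was the lowest Exercised library here, at 30.7 TPM, with 4.25 TPM for the summed 9 genes. Monocyte, macrophage and Kupffer cell genes, had reads for 12 of 13 (the Kupffer cell gene Vsig4 had none) and summed to 0.222 to 0.809 TPM in Sedentary and 0.141 to 0.713 TPM in Exercised. Endothelial genes, all 8 with reads, summed to 0.271 to 0.697 TPM in Sedentary and 0.154 to 3.13 TPM in Exercised, the latter maximum in Exercised a. The part of these cell types, and of depth, in the levels of the 9 genes was not tested.

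The genes most like the 9 in their distribution over the libraries were other liver messages. Likeness was the overlap between the share of a gene in each library and that of the summed 9 genes, over 8 libraries and 913 genes with at least 100 reads. Ambp (the precursor of alpha-1-microglobulin and bikunin) overlapped by 89.7%, retinol binding protein Rbp4 by 88.6%, the urea cycle enzyme Cps1 by 87.7%, the bile acid enzyme Akr1d1 by 85.3% and Gc by 85.2%, and the median gene overlapped by 56.1%. Each of the 9 genes overlapped with the sum of the other 8 by 73.6% (Serpina1) to 84.6% (Fgb). These percentages describe 8 libraries that share their depth and scaling.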

How the data were processed

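The authors deposited 1 table of TPM for 8 plasma exosome libraries. Per the labels and the methods, plasma was cleared of cells by centrifugation, exosomes were isolated by precipitation, and stranded total RNA libraries were made without fragmentation and with depletion of ribosomal cDNA. The submitters' processing notes name build mRatBN7.2, with aligner and counter not given in the sources used here. Although TPM keeps no depth, all 71860 values above 0 were whole multiples of the value of 1 read at a tolerance of 1e-06, and among the 14356 genes with 2 or more such values 23 still came out whole after multiplication by random factors. If the reads of a gene share a common factor, its true reads are a multiple of those given. The handling of PCR duplicates was not stated either.

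The 508 genes whose mean reached 1 TPM were compared on log2(TPM + 1) by limma 3.58.1 in R 4.3.3 with Benjamini-Hochberg adjustment. Recovered reads of genes with at least 10 reads (7640), without the 10 most abundant RNAs, were compared by voom. TPM values of each gene were compared by two-sided exact permutation tests over 70 assignments. The fits were tested on simulated data. Alternatives were other scalings, filters, pseudocounts, a replicate block and leaving out libraries. The 9 genes and all lists were chosen with earlier results of these data known. Genes named by rule were the members, up to 4 of the highest mean TPM in each list, and the 5 most like the summed members. Others were named after their values were seen: Proc, F8, Serpinf2, C4a, C9, Mug1, Crp, Serpina3n, Elane, Gp1bb, Selp, Vsig4, Mug1l1, Mup5 and Tf. The level of Ahsg was not analysed here, and 1 complement gene is not reported here. Promoter windows and their coordinates are from RefSeq on GRCr8, another build than that of the table.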

Additional observations from a re-analysis of the deposited data

Results flagged for a closer look

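In 4 of the 20 groups of 4 libraries examined (the 9 genes and their summed level in both groups), 1 library stood apart from the rest of its group by Dixon's criterion at 95%. The 5% rate of that criterion holds for independent normal values. These groups share libraries and hold low values with many at 0, so the count is not set against that rate. All 4 were Exercised groups. In F2, Exercised a was at 0.147 TPM and the other Exercised libraries at 0. In Serpina1, Exercised a was at 2.58 TPM and the next at 0.106 TPM. In Hp, Exercised b was at 0.470 TPM and the next at 0.0654 TPM. In Itih4, Exercised b was at 0.971 TPM and the next at 0.203 TPM. The value in F2 is a single read, and with the other Exercised libraries at 0 any read there would be flagged.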

How the results depend on the processing

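The mean of each of the 9 genes was lower in Exercised when any 1 library was left out. By limma, 0 of the 9 genes were lower at an unadjusted p under 0.05 on TPM as deposited, where 1 was tested. With all 9 tested, it was 8 after scaling TPM again without the 10 most abundant RNAs. It was 3 with a filter at a mean of 0.1 TPM, 4 without a filter and 8 by voom. More of the 9 entered these tests than on TPM as deposited. Scaling TPM again also raised all remaining values while 1 was still added before the logarithm, so low genes were less compressed there. The part of that in the counts was not tested. Over all genes by limma, 0 passed after adjustment, and with 1 library left out in turn 0 to 1, the 1 without Sedentary a. Splits of higher and lower genes at an unadjusted p under 0.05 were 43 and 11 of 508 as deposited and 24 and 14 of 486 with median-ratio scaling. They were 181 and 522 of 11805 after scaling TPM again, 102 and 53 of 3069 with the filter at 0.1 TPM and 208 and 200 of 17901 without a filter. By voom, 5 (without Exercised c) to 9 (without Sedentary b) of the 9 genes were lower, against 232 of 6880 and 361 of 7189 over all genes. Without Exercised b 6 liver messages (Alb, Gc, Hpx, Mug1l1, Mup5 and Tf) passed after adjustment, none of them among the 9. With 1 library left out, the exact test called 0 to 5 of the 9, groups did not overlap in 2 to 5, and the summed ratio was 0.241 to 0.517. The 5 were without Sedentary b, where groups did not overlap in the same direction in 3.42% of the 7640 genes. Without any 1 Exercised library the exact test called 0, although the groups of Fgg and Plg still did not overlap. The summed ratio was 0.211 after scaling TPM again and 0.191 without both Sedentary b and Exercised a. Without both Sedentary b and Exercised a, which was the least sequenced, groups did not overlap in 7. The share of all genes was not counted for those libraries, and groups of 3 separate more easily than groups of 4. Sedentary b was also the lowest Sedentary library in all 9 genes, so the 7 is not read as a result about them. The exact test called 0, since 3 against 3 cannot go below 0.10. The summed complement ratio of 0.878 ranged from 0.725 without Exercised a to 1.11 without Sedentary d, was 1.01 without Exercised d, and was 0.538 after scaling TPM again. Letters did not pair the libraries (correlations of deviations -0.263 to -0.00487). With the letter as a replicate block, limma tested 1 of the 9 genes and called 0. By voom with that block, 8 of the 9 were lower at an unadjusted p under 0.05, against 270 of all 7640 genes. After adjustment 0 passed in either fit. In the cases not explained by genes or samples entering a test, the cause was not tested. Fits by voom without single libraries or with the block, and the scaling to equal totals, were chosen after seeing the data. On 11 and 13 reads over the 9 genes, differences between Exercised c and d were not detectable.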
